A study of Mus musculus with 464 samples.

Results

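Expression of 8 genes of cholesterol metabolism was followed in single cells of differentiating mouse embryonic stem cells. The genes were taken by name: Hmgcs1, Idi1, Fdps, Fdft1, Sqle and Lss, which encode enzymes of cholesterol synthesis, and Insig1 and Srebf2, which encode regulators of the pathway. They are 8 of the 21973 genes in the expression table, and all 8 were present. The group was named for synthesis and uptake, but none of the 8 encodes an uptake receptor, so uptake genes were described from a separate list of 11 genes.

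All labelled cells form 1 group. They are R1 mouse embryonic stem cells, kept beforehand with 15% serum replacement and LIF at 1000 U/ml. The cells spent 48 hours as hanging drops and the resulting embryoid bodies then received retinoic acid, stated as 0.5 mM, for 4 days. No untreated group, separate culture or second clone is named, and no transgene is stated. The study used these data to cluster cells jointly with chromatin accessibility, and the accessibility data were not analysed here. Values are TPM, a transcript share corrected for gene length and scaled to the total of the cell, from full-length cDNA made with SMART-Seq V4 chemistry on a Fluidigm C1.

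Cells were kept at 2000 or more genes above 0 and a mitochondrial share of 20% or less, which removed 6 columns. Among those kept, 55 columns of one of 2 column sets, told apart by tags in the column names, were near copies of a column in the other set, with correlations of 0.95 to 0.99 against at most 0.917 for any other pair of columns. Each such pair was counted as 1 cell, which gave the distinct cells on which all values rest, with a median of 6740 genes above 0 (range 2059 to 10256). TPM keeps no sequencing depth, so the depth behind each value is unknown. All cells belong to 1 group and the number of cultures is not stated, so there is no replicate spread to set a difference against. No p-values are given, intervals of shares are exact Clopper-Pearson 95% intervals covering counting error only, and SDs are over cells.

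Cholesterol is made from acetyl-CoA through mevalonate, isoprenoid diphosphates, squalene and lanosterol. The transcription factor SREBP2, encoded by Srebf2, switches on most genes of this route. When sterols are plentiful, INSIG1 holds SREBP2 and its escort SCAP in the endoplasmic reticulum, and Insig1 is itself a target of SREBP2, which closes a feedback loop. In the mouse, neural tissue makes cholesterol locally, while visceral endoderm takes up lipoproteins through large surface receptors.

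Promoter sequences of 5 of the 8 genes (Hmgcs1, Idi1, Lss, Insig1 and Srebf2) were matched in the RefSeq table of build GRCm38.p6, which is the same assembly as mm10, together with 13 of 15 other synthesis enzymes. The 250 bases before the annotated start of 4 genes are shown because their levels differed between cell states, as described further on. Capitals mark the pieces CACNCCAC and TCACNCCA of the sterol regulatory element bound by SREBP proteins, and the CCAAT box bound by NF-Y, which reads ATTGG where it lies on the opposite strand. All 4 sequences are on the plus strand, at chr13:119690101-119690350 for Hmgcs1, chr13:8885356-8885605 for Idi1, chr5:28071162-28071411 for Insig1 and chr15:82147019-82147268 for Srebf2.
Hmgcs1: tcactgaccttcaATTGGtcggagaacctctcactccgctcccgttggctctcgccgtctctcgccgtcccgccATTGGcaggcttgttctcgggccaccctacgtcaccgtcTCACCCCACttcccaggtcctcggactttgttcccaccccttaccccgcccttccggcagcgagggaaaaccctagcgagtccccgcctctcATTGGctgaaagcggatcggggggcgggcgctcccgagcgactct
Idi1: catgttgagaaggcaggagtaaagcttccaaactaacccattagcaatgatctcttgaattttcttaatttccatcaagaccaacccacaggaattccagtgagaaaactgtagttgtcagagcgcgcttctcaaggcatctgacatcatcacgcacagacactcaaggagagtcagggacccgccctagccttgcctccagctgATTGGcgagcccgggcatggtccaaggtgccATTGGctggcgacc
Insig1: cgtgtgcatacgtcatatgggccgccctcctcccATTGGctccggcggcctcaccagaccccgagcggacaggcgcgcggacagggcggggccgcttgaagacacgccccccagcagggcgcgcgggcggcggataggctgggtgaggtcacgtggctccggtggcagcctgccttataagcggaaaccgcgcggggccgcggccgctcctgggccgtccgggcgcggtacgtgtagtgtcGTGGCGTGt
Srebf2: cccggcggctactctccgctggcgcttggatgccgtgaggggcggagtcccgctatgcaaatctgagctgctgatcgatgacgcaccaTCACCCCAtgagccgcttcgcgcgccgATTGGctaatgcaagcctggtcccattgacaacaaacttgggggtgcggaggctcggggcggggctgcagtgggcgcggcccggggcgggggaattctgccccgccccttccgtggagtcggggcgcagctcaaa

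Motifs were searched on both strands of these 250-base windows, with N standing for any base. CCAAT was found in 5 of 5 matched genes and in 12 of 13 other synthesis enzymes, against 37.5% of all 27025 genes with a promoter in the table. GGGCGG, the GC box bound by Sp1, was likewise found in 5 of 5 and 12 of 13, against 35.4% of all genes. CACNCCAC was found in Hmgcs1 and Insig1 and in 1 of 13 other enzymes, against 6.05% of all genes. TCACNCCA was found in Hmgcs1, where it overlaps CACNCCAC, in Srebf2 and in 1 of 13 other enzymes, against 4.20% of all genes. The E-box CACGTG was found in Insig1 and in 3 of 13 other enzymes, against 6.86% of all genes. In Hmgcs1, which encodes the enzyme that forms HMG-CoA, the overlapping pair and 3 CCAAT boxes lay apart from each other in the window. Insig1 carried CACNCCAC 9 to 2 bases before the start, on the opposite strand. Such matches describe the letters of these windows and no binding was measured.

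On build GRCm38.p6 the genes span chr13:119690351-119708260 (Hmgcs1), chr13:8885606-8892396 (Idi1), chr3:89093588-89101967 (Fdps) and chr14:63145150-63181687 (Fdft1). The others span chr15:59315092-59331193 (Sqle), chr10:76531565-76557139 (Lss), chr5:28071412-28078662 (Insig1) and chr15:82147269-82205379 (Srebf2). Idi1 has the close paralog Idi2, and Fdps has processed pseudogenes. How the estimation split reads among such copies is not given, so the levels of Idi1 and Fdps are less certain than the others.

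The enzymes of the middle of the pathway were detected in most cells. Detection in a cell meant a value of 1 TPM or more. Fdps, which makes farnesyl diphosphate at the branch between sterols and isoprenoids, was detected in 90.1% of all cells (interval 86.7 to 92.8) with a median of 143.65 TPM and a highest value of 1727 TPM. Fdft1, squalene synthase, the enzyme that commits farnesyl diphosphate to sterols, was detected in 92.3% (89.3 to 94.7) with a median of 87.4 TPM and a highest value of 696 TPM. Idi1, which isomerises isopentenyl diphosphate, was detected in 84.1% (80.2 to 87.5) with a median of 85.03 TPM and a highest value of 995 TPM. These 3 had the highest mean levels of the 8, at 187.9 TPM for Fdps, 122.2 TPM for Idi1 and 111.5 TPM for Fdft1.

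Hmgcs1 was detected in 87.8% of cells (84.2 to 90.9) with a median of 46.7 TPM and a highest value of 393.6 TPM. Sqle, squalene epoxidase, a rate-limiting oxygen-dependent step, was detected in 74.2% (69.6 to 78.4) with a median of 28.4 TPM and a highest value of 325.7 TPM. Lss, lanosterol synthase, which closes the sterol rings, was detected in 38.7% (33.9 to 43.7) with a median of 0 and a highest value of 176.3 TPM. Lss was thus the enzyme with the lowest detected share and mean level of the 6.

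The regulators lay lower than most enzymes. Insig1 was detected in 66.01% (61.2 to 70.6) with a median of 8.80 TPM and a highest value of 567 TPM. Srebf2 was detected in 64.3% (59.4 to 68.95) with a median of 2.93 TPM and a highest value of 52.8 TPM. In the order of mean TPM, Fdps was followed by Idi1, Fdft1, Hmgcs1, Sqle, Insig1, Lss and Srebf2. Interquartile ranges of neighbours in this order overlapped throughout, for example 50.6 to 247.7 TPM for Fdps and 18.1 to 182.96 TPM for Idi1.

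Measurement error was read from the 55 near-copy pairs, where set 1 and set 2 columns gave 2 readings of what was taken to be the same cell. On the log2(TPM + 1) scale the readings correlated at 0.943 (Fdps) to 0.996 (Fdft1). The SD of the difference between readings was 0.24 for Fdft1 to 0.90 for Fdps, against SDs over all cells of 1.54 for Srebf2 to 2.78 for Idi1. A gene was detected in only 1 reading of a pair in 0 of 55 pairs for Fdft1 and Lss, and in 4 of 55 for Hmgcs1, Idi1 and Fdps. For each of the 8 genes the spread over cells was larger than the spread between readings. These readings share what happened before the columns parted, so they do not show losses at that stage.

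**Figure D1:**
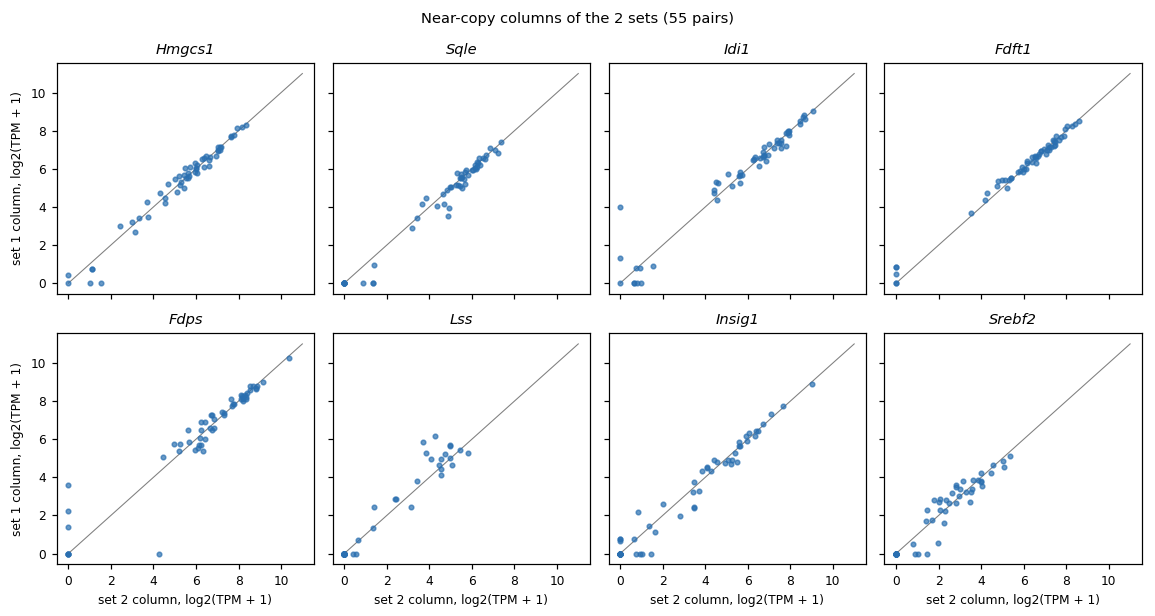
Each panel plots 1 gene in the 55 near-copy column pairs, with the set 2 reading on the x axis and the set 1 reading on the y axis, both as log2(TPM + 1), and the line of equality in grey. Points lie close to the line for all 8 genes, with correlations of 0.943 (Fdps) to 0.996 (Fdft1), and a few Fdps and Idi1 points sit on an axis.

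Cells were then divided by marker genes, a marker counting at 10 TPM or more. Endoderm-marker cells (58, 14.4% of all cells) held at least 3 of 6 endoderm markers, neuron-marker cells (28.5% of all cells) at least 5 of 8 neuron markers, and progenitor-marker cells (43.7% of all cells) at least 3 of 8 neural progenitor markers without meeting the neuron rule. A further 41 cells met the endoderm rule together with a neural one, and 13 met none. Neuron-marker cells could also meet the progenitor rule. The 8 neural progenitor markers summed to a median of 209.7 TPM in neuron-marker cells and 645.5 TPM in progenitor-marker cells. The rule itself fixes the levels of these markers, which are given as a description. Sox17, an endoderm transcription factor gene, had a median of 128.6 TPM in endoderm-marker cells and 0 in progenitor-marker cells. Stmn2, a neuronal gene, had a median of 401.7 TPM in neuron-marker cells and 0 in progenitor-marker cells. Pax6, a neural progenitor gene, had a median of 0 in endoderm-marker cells and 81.2 TPM in progenitor-marker cells. Near the limits, 7 cells held 3 endoderm markers and 12 held 2, while 27 held 5 neuron markers and 32 held 4. The 41 cells with both kinds of marker had a median of 8026 genes above 0, against 6118 in endoderm-marker and 6719 in progenitor-marker cells, and doublets were not called.

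Most enzymes were low in endoderm-marker cells and high in progenitor-marker cells, whereas Insig1 was the reverse. In all 3 of these states the lowest value of each of the 8 genes was 0, so the groups overlapped for every gene. Idi1 had a median of 0.88 and a highest value of 217.55 TPM in endoderm-marker cells, against 135.9 and 680.1 TPM in progenitor-marker cells. Its interquartile ranges, 0 to 33.5 TPM in endoderm-marker cells and 64.6 to 252.4 TPM in progenitor-marker cells, did not overlap. Hmgcs1 had a median of 4.89 and a highest value of 65.5 TPM in endoderm-marker cells, against 63.2 and 313.97 TPM in progenitor-marker cells. The highest endoderm-marker cell was thus close to the progenitor-marker median.

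Fdps had a median of 11.4 and a highest value of 354.5 TPM in endoderm-marker cells, against 180.2 and 1217 TPM in progenitor-marker cells. Sqle had a median of 0 and a highest value of 166.95 TPM in endoderm-marker cells, against 38.3 and 325.7 TPM in progenitor-marker cells. Interquartile ranges were apart for Fdps and Sqle as well. Fdft1 had a median of 66.4 TPM in endoderm-marker cells, against 90.6 TPM in progenitor-marker cells, where its highest value was 407.8 TPM. Lss had medians of 0 in both states, with highest values of 74.3 TPM in endoderm-marker cells and 159.06 TPM in progenitor-marker cells. For these 2 enzymes the middle of the distributions overlapped widely.

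Insig1 had a median of 49.9 and a highest value of 473 TPM in endoderm-marker cells, against 4.61 and 86.5 TPM in progenitor-marker cells. Its interquartile ranges were apart, at 21.7 to 93.9 TPM in endoderm-marker cells and 0 to 19.3 TPM in progenitor-marker cells. Within column set 2 alone they overlapped, at 15.65 to 67.1 TPM in endoderm-marker cells and 0 to 17.3 TPM in progenitor-marker cells. Srebf2 had a median of 0.42 and a highest value of 26.7 TPM in endoderm-marker cells, against 3.84 and 39.8 TPM in progenitor-marker cells. Detection moved the same way: Insig1 was detected in 89.7% of endoderm-marker cells (78.8 to 96.1) and 61.4% of progenitor-marker cells (53.7 to 68.6). Sqle was detected in 34.5% of endoderm-marker cells (22.5 to 48.1) and 86.4% of progenitor-marker cells (80.4 to 91.1). At least 5 of the 6 enzymes were detected together in 15.5% of endoderm-marker cells, 74.8% of neuron-marker cells and 75.6% of progenitor-marker cells.

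**Figure D2:**
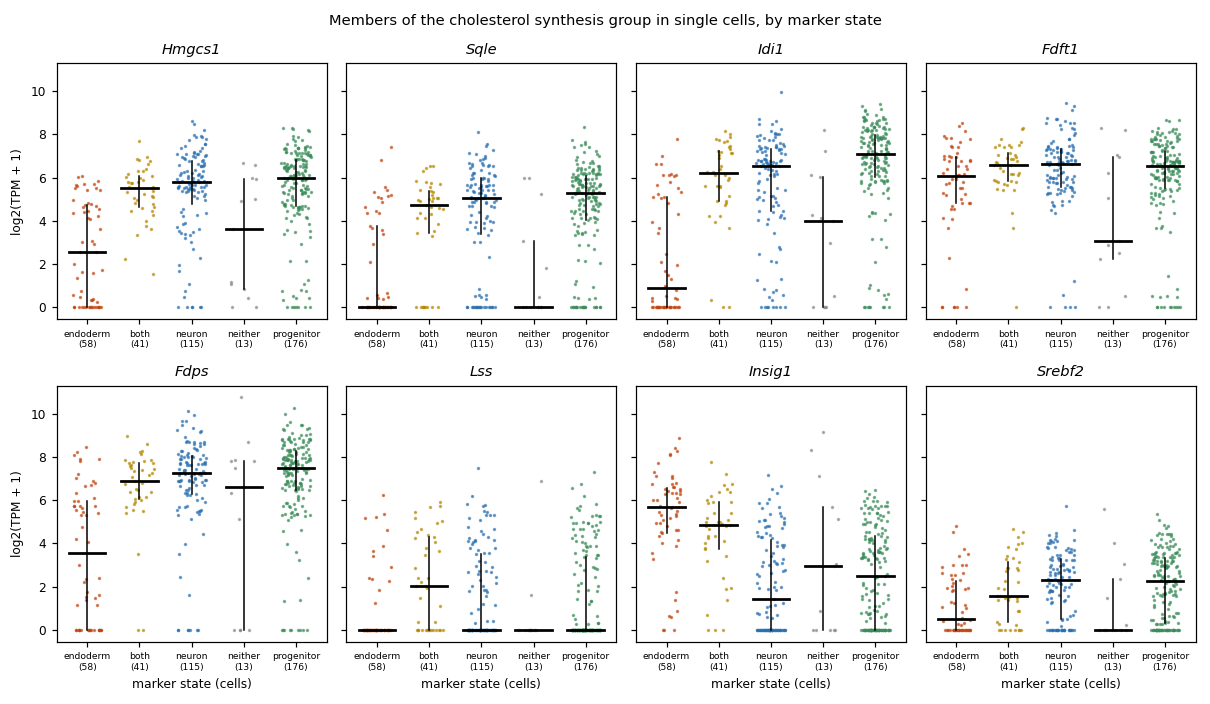
Each panel plots 1 gene, with 1 point per cell as log2(TPM + 1) on the y axis and the marker state with its number of cells on the x axis; the thick bar is the median and the thin line the interquartile range. Idi1, Hmgcs1, Sqle and Fdps sit lowest in endoderm-marker cells among the 3 large states, with an Idi1 median of 0.88 TPM against 135.9 TPM in progenitor-marker cells, while Insig1 sits highest there with 49.9 TPM.

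The 2 smaller states lay elsewhere. In cells with both endoderm and neural markers, Insig1 had a median of 27.5 TPM, Hmgcs1 of 44.3 TPM and Idi1 of 73.5 TPM. These medians lay between those of endoderm-marker and progenitor-marker cells. The means did so too: Idi1 had 97.5 TPM, against 22.6 TPM in endoderm-marker and 174.2 TPM in progenitor-marker cells. For Insig1 the mean was 40.3 TPM, against 78.8 TPM in endoderm-marker and 14.1 TPM in progenitor-marker cells. Medians of Sqle, Fdps and Srebf2 also lay between, whereas those of Fdft1 and Lss lay above both states. Fdft1 had 96.1 TPM, against 66.4 TPM in endoderm-marker and 90.6 TPM in progenitor-marker cells. Lss had 3.12 TPM, against 0 in both. At least 5 of the 6 enzymes were detected in 80.5% of the cells with both kinds of marker. Whether these cells are doublets was not tested. In the 13 cells that met no rule the medians were 11.3 TPM for Hmgcs1, 15.0 TPM for Idi1 and 6.89 TPM for Insig1, at a median of 4381 genes above 0. Ordered by number of endoderm markers, the Insig1 median was 2.45 TPM with 0 markers, 8.90 TPM with 1, 22.1 TPM with 2, 30.6 TPM with 3, 29.9 TPM with 4, 30.5 TPM with 5 and 70.99 TPM with 6. It was thus level from 3 to 5 markers. The Hmgcs1 median was 59.2 TPM with 0 markers, 58.4 TPM with 1, 48.6 TPM with 2, 27.5 TPM with 3, 18.45 TPM with 4, 36.2 TPM with 5 and 21.2 TPM with 6, with no steady order from 3 upwards. Cells with 3 or more endoderm markers are the endoderm-marker cells together with those holding both kinds.

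For the ratio between states, a gene was called higher or lower at a 2-fold difference of mean TPM (0.01 added to both means), if it was detected in at least 10 of the cells compared. Of the 8 genes, 6 were called in endoderm-marker over progenitor-marker cells, 1 higher and 5 lower. Among all 12359 genes tested, 18.9% were called higher and 26.9% lower. On the log2 scale the ratio was -2.94 for Idi1, -2.31 for Hmgcs1, -2.04 for Fdps, -1.95 for Sqle and -1.05 for Srebf2. Insig1 had a log2 ratio of 2.48, a 5.57-fold difference, with means of 78.8 ± 93.4 TPM in endoderm-marker cells and 14.1 ± 19.7 TPM in progenitor-marker cells (SD over the cells of each state). Lss, at -0.92, and Fdft1, at -0.28, were not called. The median log2 ratio was -1.50 over the 8 genes and -0.26 over all genes tested.

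The same call was found in both column sets for 5 of the 8 genes, with 32 endoderm-marker cells in set 1 and 26 in set 2. The log2 ratio was -2.28 in set 1 and -2.36 in set 2 for Hmgcs1, -2.49 and -3.65 for Idi1, -2.11 and -1.95 for Fdps, and 2.66 and 2.23 for Insig1. Sqle differed more between sets, at -1.25 in set 1 and -3.26 in set 2. Srebf2 was -1.17 in set 1 and -0.86 in set 2, and its call was lost in 6 of 15 alternative settings. Lss was called lower in set 2 (-1.73) and not in set 1 (-0.34). Fdft1 was called in neither set, at 0.02 in set 1 and -0.77 in set 2. When each cell was rescaled on widely detected genes, the all-gene median became 0.04 and calls over all genes became 24.4% higher and 21.4% lower. Under that scaling the log2 ratio of Fdft1 was 0.03, so its direction turned, Srebf2 at -0.77 was no longer called, and Insig1 was 2.76.

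Other measures also moved between these states. Summed over 10 genes each, S phase genes had a median of 341.1 TPM in endoderm-marker cells and 1124 TPM in progenitor-marker cells. G2 and M phase genes had a median of 233.05 TPM in endoderm-marker cells and 2141 TPM in progenitor-marker cells. Genes above 0 had a median of 6118 in endoderm-marker cells and 6719 in progenitor-marker cells, and 9 housekeeping genes summed to a median of 13328 TPM in endoderm-marker cells and 19366 TPM in progenitor-marker cells. Immediate early genes, which respond to stress and handling, summed to 406.1 TPM in endoderm-marker cells and 120.1 TPM in progenitor-marker cells. The part of these measures in the ratios was not tested. In cells with 5000 to 8000 genes above 0, 1 of the 8 genes was called higher and 4 lower. Markers of other cell types were near 0: summed pluripotency, mesenchyme, neural crest and endothelial and blood markers had medians of 0 in both states. In endoderm-marker cells, 3 of 4 pluripotency markers, 3 of 4 neural crest markers, 3 of 5 mesenchyme markers and 1 of 5 endothelial and blood markers were listed at 0 in every cell. The 8 neural progenitor markers, which the rule uses, summed to 0 to 86.4 TPM in endoderm-marker cells and 97.3 to 5678 TPM in progenitor-marker cells.

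Most of the other 15 enzymes of the pathway were also lower. Of these, 11 were called lower in endoderm-marker over progenitor-marker cells, 0 were called higher and 4 were not called, with a median log2 ratio of -1.45. Together 15 of 21 synthesis enzymes were called lower, against 26.9% of all genes tested. Msmo1, which removes methyl groups from lanosterol derivatives, had a log2 ratio of -2.42, with a median of 6.48 TPM in endoderm-marker cells and 258.7 TPM in progenitor-marker cells. Acat2, which makes acetoacetyl-CoA at the entry of the pathway, had -2.17, and Dhcr7, which catalyses a last step to cholesterol, had -1.87. Ebp, a sterol isomerase gene, was not called at 0.97 (1.17 in set 1 alone), nor were Pmvk at 0.03 and Sc5d at 0.05.

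Uptake genes were split. Of 11 listed, 4 were called higher and 3 lower in endoderm-marker over progenitor-marker cells. Over all genes tested, 18.9% were called higher and 26.9% lower, so the count of lower uptake genes was near that share. Lrp2, which encodes the endocytic receptor megalin, had a log2 ratio of 5.90 and was detected in 81.03% of endoderm-marker cells (68.6 to 90.1) and 6.25% of progenitor-marker cells (3.16 to 10.9). Lrp1, another lipoprotein receptor gene, was detected in 0 of 58 endoderm-marker cells, which allows a share of up to 6.16%, and in 27.3% of progenitor-marker cells. Its log2 ratio of -6.77 depends on the 0.01 TPM added, and on a difference of mean log2(TPM + 1) it was -0.87. The uptake receptors thus did not share the pattern of the enzymes as a list.

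Genes for storage and export were called higher. Of 6 listed, 4 could be tested and 3 were called higher in endoderm-marker over progenitor-marker cells. Among all genes tested, 18.9% were called higher and 26.9% lower. Apoe, an apolipoprotein gene, had a log2 ratio of 2.97, with a median of 280.04 TPM in endoderm-marker cells and 45.6 TPM in progenitor-marker cells. Soat1, which esterifies cholesterol for storage, had 2.81 and was detected in 58 of 58 endoderm-marker cells and 64.2% of progenitor-marker cells. Abca1, a cholesterol exporter gene, had 2.28, and its call was lost in 1 of 15 alternative settings. Of 9 tested genes of SREBP regulation other than Insig1 and Srebf2, only Ubxn8 was called, with 1.36. None was called lower, and the list median was 0.28. Insig2 was just below the limit at 0.9985, with 0.68 in set 1 and 1.34 in set 2. Mbtps1 was at 0.95, with 1.13 in set 1 and 0.70 in set 2. Ubxn8 encodes a protein of the endoplasmic reticulum and was listed without an established role in SREBP regulation.

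Of 12 fatty acid synthesis genes, 6 were called lower and 1 higher in endoderm-marker over progenitor-marker cells, with a median log2 ratio of -0.81. The desaturase genes Fads2, at -5.36, and Fads1, at -1.72, were among the lower ones, and Me1, malic enzyme, which supplies NADPH, was higher at 3.87. Fads2 was detected in 3.45% of endoderm-marker cells and 21.6% of progenitor-marker cells, so its ratio rests on few cells. Of 8 genes of the isoprenoid branch, which uses farnesyl diphosphate for ubiquinone, dolichol and protein prenylation, 2 were called lower and 1 higher. Over all genes tested, 26.9% were called lower and 18.9% higher, so the isoprenoid list was near these shares. Pdss1, for the ubiquinone side chain, was -2.10, Fntb, a farnesyltransferase subunit gene, was -1.20, and Icmt, a methyltransferase gene for prenylated proteins, was 1.39.

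**Figure D3:**
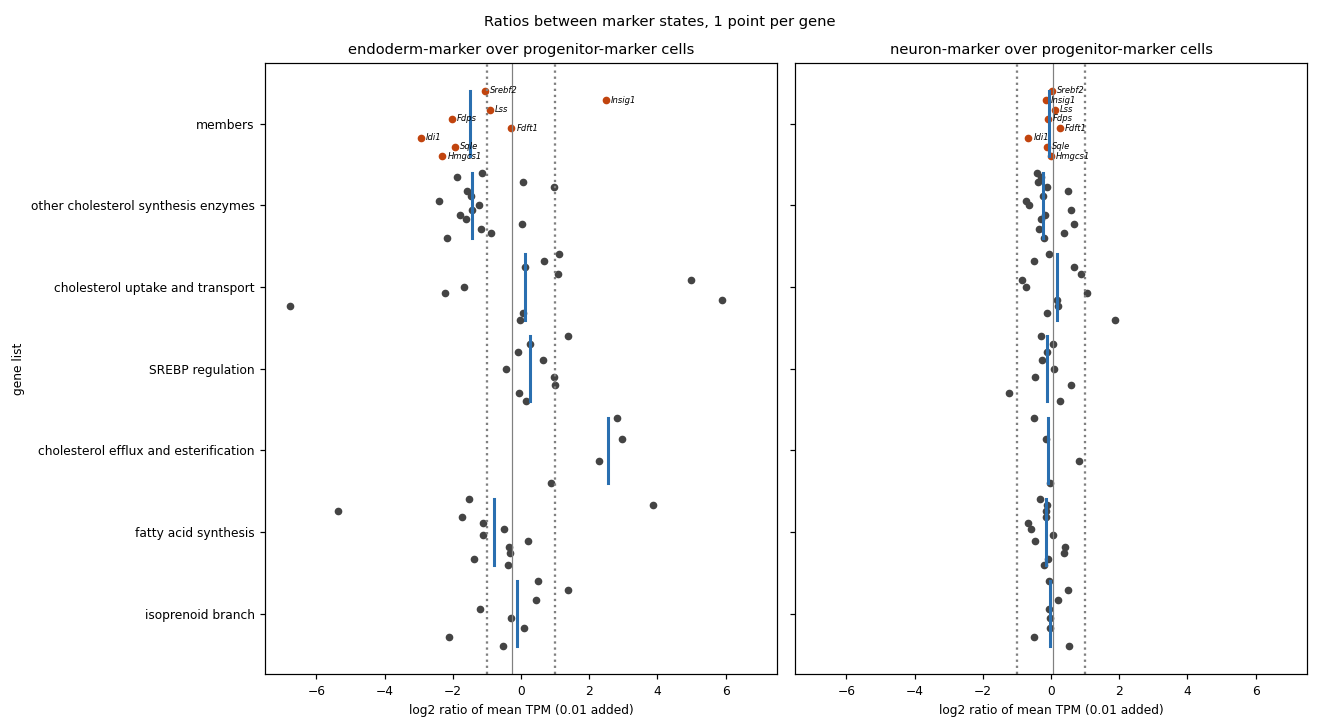
Each point is 1 tested gene, by list, with the log2 ratio of mean TPM on the x axis for endoderm-marker over progenitor-marker cells (left) and neuron-marker over progenitor-marker cells (right); blue bars are list medians, the grey line is the median of all genes tested and dotted lines mark the 2-fold limits. On the left the 8 genes centre on -1.50 with Insig1 apart at 2.48, and on the right all 8 lie within the limits.

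None of the 8 genes was called in neuron-marker over progenitor-marker cells, where 14% of the 12636 genes tested were called higher and 7.37% lower. Calls were rarer among genes detected in at least 50% of cells, where 5591 of 6027 were not called. Of the 8 genes, 7 are in that set, so the absence of calls did not set them apart from other genes detected this often. The log2 ratios of the 8 genes ran from -0.67 for Idi1 to 0.26 for Fdft1, with a median of -0.05, against 0.05 over all genes. Idi1 had a median of 92.2 and a highest value of 995 TPM in neuron-marker cells, against 135.9 and 680.1 TPM in progenitor-marker cells. Fdps had a median of 151.2 and a highest value of 1119 TPM in neuron-marker cells, against 180.2 and 1217 TPM in progenitor-marker cells. Insig1 had a median of 1.66 and a highest value of 144.6 TPM in neuron-marker cells, against 4.61 and 86.5 TPM in progenitor-marker cells. The distributions overlapped over most of their range for each of these genes. Neuron-marker cells could also hold progenitor markers, so this comparison is not one of neurons with progenitors as fully separate groups.

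Of the 15 other synthesis enzymes, 0 were called in neuron-marker over progenitor-marker cells, with log2 ratios from -0.73 for Msmo1 to 0.67 for Pmvk. Over all genes tested, 14% were called higher and 7.37% lower. Most of the 15 were detected in at least 50% of cells, where 5591 of 6027 genes were not called. The absence of calls therefore did not set this list apart either. By mean log2(TPM + 1) the differences of the sterol reductase gene Lbr (-1.34), Msmo1 (-1.16) and, among the 8, Idi1 (-1.03) were past the 2-fold limit. S phase genes summed to a median of 376.4 TPM in neuron-marker cells and 1124 TPM in progenitor-marker cells, and G2 and M phase genes to 389.6 TPM in neuron-marker cells and 2141 TPM in progenitor-marker cells. The part of the cell cycle sums in the enzyme ratios was not tested. Lrp8, a reelin and apolipoprotein E receptor gene of neurons, was called higher at 1.05 and Srebf1, the gene of the related SREBP1, lower at -1.22. The Lrp8 call was lost in 6 of 15 alternative settings and the Srebf1 call in 2. Both comparisons use the same progenitor-marker cells.

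In single cells the 6 enzymes varied together. The median Pearson correlation of log2(TPM + 1) over all cells was 0.43 for the 15 enzyme pairs (range 0.22 to 0.59), and 0.29 for the 28 pairs of all 8 genes (range -0.03 to 0.59). For comparison, the median over all pairs of the 6027 genes detected in at least 50% of cells was 0.09, with 0.56% of pairs at 0.4 or more. Among 9 housekeeping genes the median was 0.12. Hmgcs1 with Idi1 had the highest value, 0.59, followed by Hmgcs1 with Fdps at 0.54 and Sqle with Idi1 at 0.51. Lss had lower values, from 0.22 with Sqle to 0.32 with Hmgcs1, and is also the enzyme with the most zeros. Cells share a total to which TPM is scaled and differ in the number of genes detected, and after the number of genes was regressed out the medians were 0.37 for the enzymes and 0.02 for all pairs. These values describe cells of 1 group and carry no p.

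The enzymes were also correlated within neuron-marker and progenitor-marker cells, and only weakly within endoderm-marker cells. Among the 15 enzyme pairs the median was 0.15 in endoderm-marker cells (all gene pairs 0.03), 0.41 in neuron-marker cells (0.07) and 0.44 in progenitor-marker cells (0.08). The upper quartile of all gene pairs was 0.13 in endoderm-marker, 0.15 in neuron-marker and 0.14 in progenitor-marker cells. The enzyme median in endoderm-marker cells was thus close to that quartile, with a range of -0.04 to 0.48. In endoderm-marker cells, where many values are 0, Fdft1 with Fdps reached 0.48 and Hmgcs1 with Idi1 0.41, whereas Hmgcs1 with Sqle was -0.01. In progenitor-marker cells the highest pair was Hmgcs1 with Fdft1 at 0.57. By column set the progenitor-marker median over enzyme pairs was 0.45 in set 1 and 0.30 in set 2. Srebf2 had a median correlation with the 6 enzymes of 0.26 over all cells, 0.19 in endoderm-marker cells, 0.14 in neuron-marker cells and 0.26 in progenitor-marker cells.

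Insig1 followed the enzymes within states but not across them. Its median correlation with the 6 enzymes was 0.05 over all cells (range -0.03 to 0.20). Within states it was 0.26 in endoderm-marker cells, 0.21 in neuron-marker cells and 0.29 in progenitor-marker cells, and 0.04 in the cells with both kinds of marker. In progenitor-marker cells all 6 values were positive, from 0.18 with Fdps to 0.36 with Hmgcs1. By column set the median there was 0.33 in set 1 and 0.20 in set 2, and it was 0.26 after the number of genes was regressed out. Against the summed score of the 6 enzymes, Insig1 had correlations of 0.47 in endoderm-marker cells, 0.33 in neuron-marker cells, 0.39 in progenitor-marker cells and 0.10 over all cells.

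**Figure D4:**
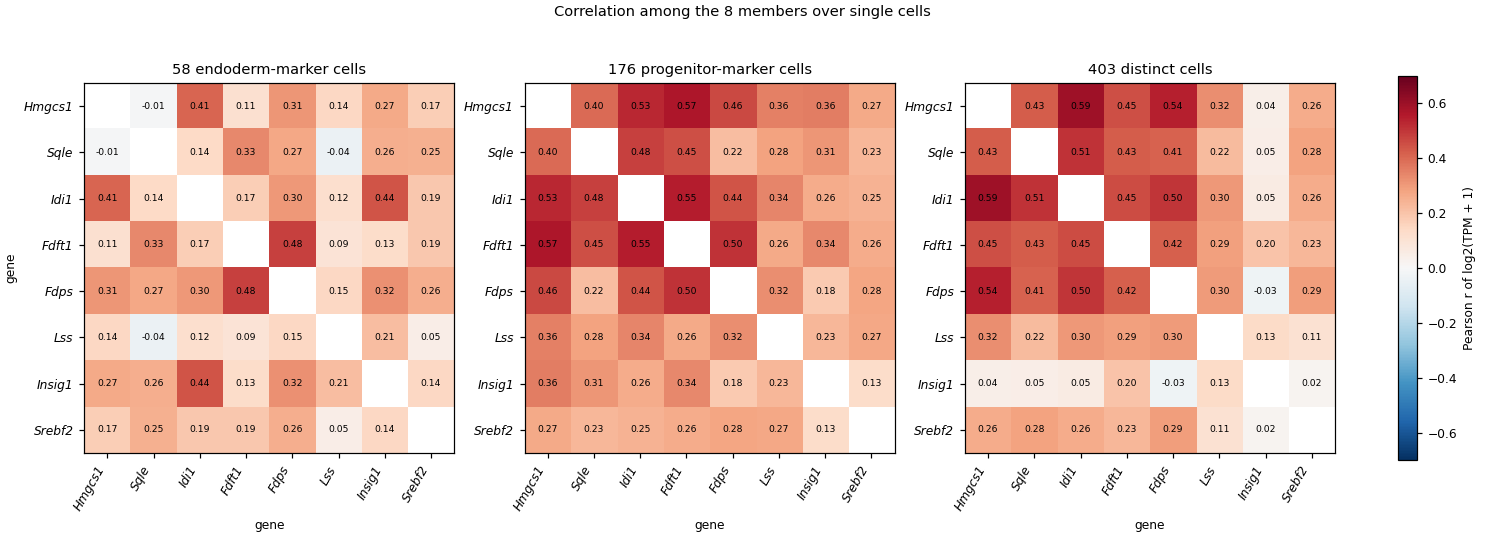
Heat maps of the Pearson correlation of log2(TPM + 1) between each pair of the 8 genes in endoderm-marker cells, progenitor-marker cells and all distinct cells, with the value printed in each square. The Insig1 row is near 0 over all cells (median 0.05 with the enzymes) and positive within progenitor-marker cells (median 0.29), and the enzyme block is weaker in endoderm-marker cells.

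**Figure D5:**
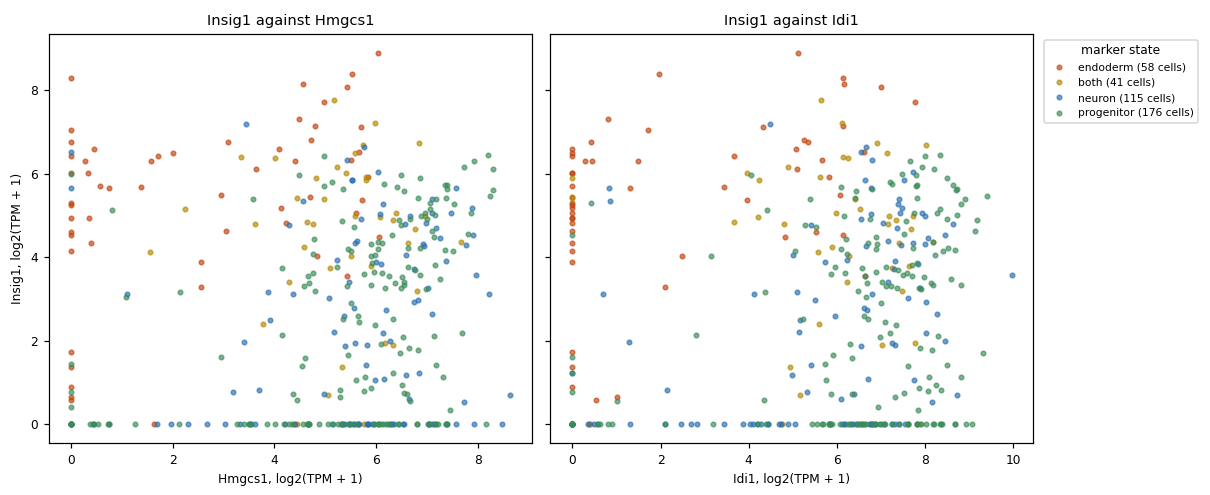
Insig1 on the y axis against Hmgcs1 (left) and Idi1 (right) on the x axis, all as log2(TPM + 1), with 1 point per cell coloured by marker state, leaving out the 13 cells that met no rule. By median, endoderm-marker cells lie high on Insig1 and low on both enzymes (medians 49.9, 4.89 and 0.88 TPM), and progenitor-marker cells lie low on Insig1 and high on both enzymes (4.61, 63.2 and 135.9 TPM).

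Most of the 10 genes most like the 8 were other genes of sterol and fatty acid synthesis. Of 8890 genes outside the group detected in at least 25% of cells, the 10 with the highest mean correlation with the 8 over all cells included Msmo1, Cyp51, Acat2, Dhcr7, Idh1, Fads1, Nsdhl, Scd2 and Acly. Their mean correlations ran from 0.43 for Msmo1 to 0.28 for Acly, against a median of 0.08 over all ranked genes. Of the 10, 6 are on the list of 15 other synthesis enzymes, 3 are fatty acid synthesis genes, and Idh1, an NADPH-producing dehydrogenase, is on neither list. Among the first 100 genes were 9 of 15 other synthesis enzymes, 6 of 12 fatty acid synthesis genes and 0 of 11 uptake genes. Only 9 of the 12 fatty acid synthesis genes passed the detection filter and were ranked. The other 85 were on none of the lipid lists, and they included the state markers Hes5 and Sox3 and the progenitor genes Nes and Vim, which were named after their values were seen. The highest ranked uptake gene was Stard4, a sterol carrier gene, with 0.20. Ebp was the least alike of the enzymes, at rank 5931 with 0.05.

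Across cells the summed score of the 6 enzymes correlated with that of the 15 other enzymes at 0.80 and with that of 12 fatty acid synthesis genes at 0.69. It correlated at 0.51 with the summed neural progenitor markers and at -0.32 with the endoderm markers. Within progenitor-marker cells its correlation with the neural progenitor markers was 0.43. It correlated at 0.39 with the number of genes above 0, at 0.35 with housekeeping genes, at 0.33 with S phase genes and at -0.23 with the efflux and esterification list. The value for the other enzymes was 0.74 in endoderm-marker cells, 0.71 in neuron-marker cells and 0.79 in progenitor-marker cells. The 2 sterol enzyme scores therefore moved closely in each of the 3 states.

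The genes most like Insig1 alone depended on the state, in a ranking added after the data were seen. Over all cells the first 10 were Srgn, Sparc, Epas1, Pga5, Col4a2, Col4a1, Gata4, Loxl2, Rhox5 and Dab2, with correlations of 0.49 to 0.46, and 0 of them were synthesis enzymes. Gata4 and Dab2 are among the endoderm markers used to define the states. In progenitor-marker cells 7 of the first 10 were synthesis enzymes, led by Msmo1 at 0.39 and Hmgcs1 at 0.36, and Fdft1, Cyp51, Sqle and Sc5d were among them. The count was 5 of 10 in set 1 alone and 1 of 10 in set 2 alone, while the correlations of Insig1 with Hmgcs1 were 0.34 in set 1 and 0.40 in set 2, and with Sqle 0.32 in set 1 and 0.31 in set 2. It was 1 of 10 in endoderm-marker cells and 1 of 10 in neuron-marker cells, Idi1 in each. For Srebf2 it was 6 of 10 over all cells and 0 of 10 within each of endoderm-, neuron- and progenitor-marker cells.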

How the data were processed

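The authors deposited 1 table of TPM values per gene and cell, made with STAR and RSEM on build mm10 per the submitters' processing notes, with no version or annotation stated. The unit is not written in the table. It was taken as TPM, since RSEM gives that unit, the values are decimals and no cell's sum exceeds the TPM total (54.2% to 95.1% of it lies on listed genes). The header line, which ran on into the first gene, was split.

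Computed here in Python 3.11.15 with numpy 2.4.6, scipy 1.17.1 and pandas 2.3.3: the cell filter, near-copy pairs (a correlation over 0.93), marker states, detected shares, ratios of mean TPM with 0.01 added, and Pearson correlations of log2(TPM + 1). The comparison code was tested on shuffled real values into which known folds and a known shared factor had been put. Columns could not be tied to single labelled samples, which all share 1 group. Repeat columns were counted once, keeping the set 1 column. The 2 column sets differ in tags of their column names. What the sets stand for is not stated, and they served as a split of the columns. Gene positions and promoters are from RefSeq, build GRCm38.p6. Depth is unknown, so no thinning of cells was done, and doublets were not called because callers need counts.

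The 8 genes, the gene lists and the marker rules were chosen with earlier results of these data known, so no pattern here is independent support. Genes named outside the 8 are from the 10 most correlated with them and from up to 3 called genes with the largest ratio per list and comparison; a few genes that the rule also names are not reported here. Ebp, Pmvk, Sc5d, Lbr, Stard4, Insig2, Mbtps1 and the genes most like Insig1 alone were named after their values were seen. Alternatives varied the repeat columns, column set, scaling, cell filter, marker thresholds, gene filter, pseudocount and measure, and the limit to cells with 5000 to 8000 genes was chosen after seeing the data.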

Additional observations from a re-analysis of the deposited data

How the results depend on the processing

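Over 15 alternatives for each ratio, Hmgcs1, Sqle, Idi1 and Fdps kept their lower call and Insig1 its higher call in endoderm-marker over progenitor-marker cells. The number of the 8 genes called ran from 5 to 7. Srebf2 lost its call in 6 alternatives (-0.88 to -0.77), and Lss, not called at first, was called in 4. Among other named genes the call was lost in 1 alternative for Lrp1, Abca1 and Fads2, in 3 for Fntb and in 4 for Icmt. In neuron-marker over progenitor-marker cells, 1 of the 8 genes (Idi1, lower at -1.03) was called when mean log2(TPM + 1) values were compared. The median correlation of the 8 genes was 0.19 within endoderm-marker cells and 0.25 to 0.33 under the other 13 alternatives. The median detected share of the 8 genes was 79.2%, with 83.7% when any value above 0 counted and 76.4% at 5 TPM. At 5 TPM the share was 38.2% for Srebf2, 55.8% for Insig1 and 29.3% for Lss. The cause of these changes was not tested. No paired analysis was possible because all cells belong to 1 group. TPM without depth, 1 group without named replicate cultures and transcripts missed in single cells limit every value here. A 0 does not show absence, and a difference between states may lie within the spread between cultures, which was not measured.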

Other observations

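The highest Fdps value, 1727 TPM, was in a cell that met no marker rule and had 2059 genes above 0, the fewest of all kept cells, and that cell was listed at 0 for Hmgcs1, Sqle, Lss and Insig1. The highest Insig1 value, 567 TPM, was also in a cell that met no rule, and that cell held 2 endoderm markers, 1 fewer than the endoderm rule asks. The highest Idi1 value, 995 TPM, was in a neuron-marker cell that also had 636 TPM of Fdps, 554 TPM of Fdft1 and 246.6 TPM of Hmgcs1. Of all cells, 3 had none of the 6 enzymes detected, 1 each among endoderm-, neuron- and progenitor-marker cells, and 31.02% of all cells had all 6.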
